A study of Mus musculus with 12 samples.

Results

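Von Willebrand factor (Vwf), P-selectin (Selp), clusterin (Clu), multimerin 1 (Mmrn1), serum deprivation response (Sdpr), integrins β3 (Itgb3) and αIIb (Itga2b), pleckstrin (Plek) and glycoprotein Ibβ (Gp1bb) are genes of the platelet lineage, and their RNA was described here in mouse hematopoietic stem cells (HSCs). They were picked by name from a list of 10 platelet-lineage genes. Of those, 9 had a row among the 14143 genes of the deposited table, and Pf4 was not analysed here. The cells came from female C57BL6J mice, either young (8 to 10 weeks by the sample labels) or old (18 months, from the National Institute on Aging colony). HSCs were sorted as lineage-negative cells with Sca-1 and c-kit on the surface and without CD48 and CD135. Those with low CD150 were taken as lymphoid-biased HSCs (Ly-HSCs) and those with high CD150 as myeloid-biased HSCs (My-HSCs). No group carried a transgene, a deletion or a drug treatment by the labels. Poly(A) RNA of 4 groups, young Ly-HSCs, old Ly-HSCs, young My-HSCs and old My-HSCs, was sequenced with 3 libraries per group and 12 in all. The question the groups pose is how age and CD150 class bear on the RNA of these cells.

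Megakaryocytes, the bone marrow cells that shed platelets, load α-granules with adhesive proteins and carry the receptors by which platelets bind vessel walls and each other. A fraction of HSCs already holds RNA of such genes, and Vwf is the usual mark of these platelet-primed stem cells. HSCs with high CD150 and HSCs of old mice are known to be richer in platelet-primed cells. In a sorted bulk sample, more cells that express a gene and more RNA per expressing cell cannot be told apart.

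Levels are FPKM as deposited, fragment counts scaled to transcript length and library size, and differences are on the log2(FPKM + 1) scale, which understates the change of low genes. A difference was called when limma's moderated test gave an adjusted p (Benjamini-Hochberg over the 10900 genes tested in that comparison) under 0.05. The FPKM values of a library summed to between 211455 and 228391. The depth behind them could not be settled from the values and is unknown. Between 12.1% and 34.1% of the genes were listed at 0, with 19.3% to 34.1% in the 6 young libraries and 12.1% to 22.3% in the 6 old ones, so undetected genes were more common in young libraries. The old libraries numbered 1 stood apart from the other old ones. The 6 granulocyte and monocyte markers of 14 listed that had a row summed to 335 FPKM in old Ly-HSC library 1 and 324 in old My-HSC library 1, against 78.6 to 113 in the other old libraries and 1.79 to 57.0 in the young ones. The 7 erythroid markers of 12 listed summed to 125 and 97.8 FPKM in those same libraries and to between 9.51 and 33.7 in the other 10.

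The CD150 labels matched the RNA. Slamf1, which encodes CD150, was 4.87, 1.39 and 1.70 FPKM in Ly-HSCs of young mice and 1.78, 8.33 and 6.47 in old Ly-HSCs, against 34.0, 20.9 and 15.0 in My-HSCs of young mice and 26.4, 35.3 and 31.0 in old My-HSCs. No My-HSC library overlapped a Ly-HSC library (log2 difference 2.62 ± 0.37 SE, limma adjusted p = 0.00810, averaged over the ages). Of 13 listed HSC markers 12 had a row and were tested. Fgd5, a guanine nucleotide exchange factor that marks HSCs, was also higher in My-HSCs (0.97 ± 0.12, limma adjusted p = 0.00476), and Cd34 was lower (-1.87 ± 0.26, limma adjusted p = 0.00810).

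Averaged over both subsets, 6 of the 9 platelet-lineage genes were called higher in old HSCs and none was called lower, where 0.752% of all tested genes were called higher and 0.0917% lower. The 6 were Selp, Sdpr, Clu, Itgb3, Plek and Mmrn1, with log2 differences between 0.65 and 3.26. Vwf, Itga2b and Gp1bb were not called. The median difference of the 9 genes was 1.16, against 0.13 over all tested genes. The genes were chosen with earlier results of these data known. The shares over all tested genes, here and below, are therefore a description and no test of the list. Averaged over both ages, 4 of the 9 were called higher in My-HSCs and none lower, with 0.321% of all tested genes called higher and 0.0917% lower. These were Vwf, Clu, Sdpr and Mmrn1, and the median of the 9 was 0.85 against 0.08 over all tested genes. That median is the difference of Gp1bb, which was near the limit of detection and not called. Clu, Sdpr and Mmrn1 were thus called in both comparisons. Both averages are sums of the same 12 libraries, and the p-values measure the spread between what the design text calls independent groups of mice, whose number of animals it does not give. The fit takes the 12 libraries as independent. Same-numbered old Ly-HSC and My-HSC libraries deviated together from their group means (Pearson's r 0.210 to 0.256), so the p-values of the averaged age calls may be too small.

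**Figure D1:**
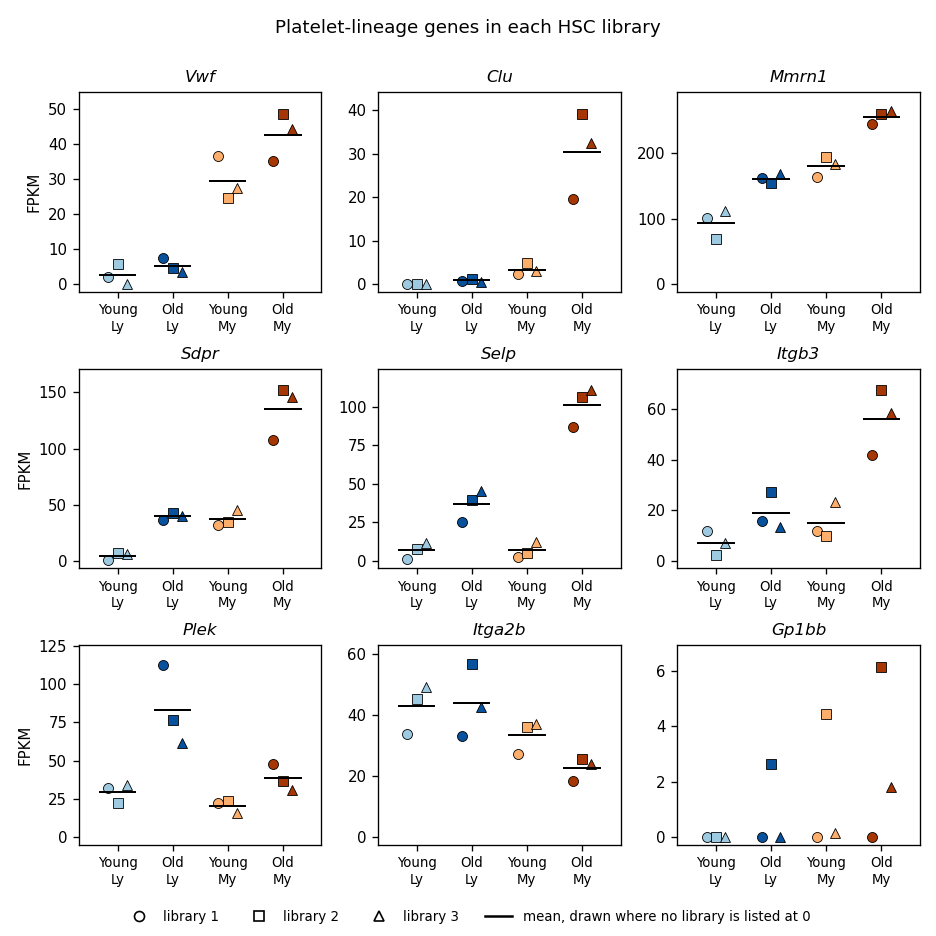
FPKM of each of the 9 platelet-lineage genes (one panel per gene, vertical axis in FPKM) in the 4 groups, with 1 point per library and a line at the group mean where no library is listed at 0. Selp, Sdpr, Itgb3 and Clu are highest in all 3 old My-HSC libraries, Vwf separates by subset, Plek is highest in Ly-HSCs of old mice, and Itga2b is lowest in old My-HSCs.

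Vwf, the large multimeric protein that tethers platelets to collagen, separated the subsets at either age. In Ly-HSCs it was 2.03, 5.71 and 0.143 FPKM in young mice and 7.66, 4.61 and 3.61 in old mice. In My-HSCs it was 36.6, 24.6 and 27.6 FPKM in young mice and 35.3, 48.7 and 44.2 in old mice. Every My-HSC library was far above every Ly-HSC library, while young and old libraries of the same subset overlapped. The group means were 2.63 ± 2.83, 5.29 ± 2.11, 29.6 ± 6.26 and 42.8 ± 6.83 FPKM (SD, n = 3 each) in young Ly-HSCs, old Ly-HSCs, young My-HSCs and old My-HSCs. The averaged subset difference was 3.12 ± 0.38 on the log2 scale (limma adjusted p = 0.00476), and Vwf stayed called in each of 22 other settings tried (adjusted p 7.14e-04 to 0.0397). With age it differed by 0.81 ± 0.38 (95% interval -0.01 to 1.62, limma adjusted p = 0.344), which was not called and whose interval reached 1.62. Of the summed squares of its log2 values over the 12 libraries, 82.6% lay between subsets, 5.51% between ages and 11.2% within groups.

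Selp encodes P-selectin, the adhesion receptor that moves from α-granules to the surface of activated platelets and binds leukocytes. It separated the ages rather than the subsets of young mice. Young Ly-HSCs held 1.08, 7.62 and 11.8 FPKM and young My-HSCs 2.47, 5.38 and 12.5 FPKM. Old Ly-HSCs held 25.5, 39.7 and 45.5 FPKM and old My-HSCs 86.8, 107 and 111 FPKM. The young subsets overlapped fully, each old library was above each young one, and old My-HSCs were above old Ly-HSCs without overlap. Selp was the only 1 of the 9 genes whose 6 old libraries all lay above all 6 young ones, an arrangement found in 1.21% of all tested genes. Means were 6.84 ± 5.41 and 6.79 ± 5.17 FPKM in young Ly-HSCs and My-HSCs and 36.9 ± 10.3 and 101 ± 12.9 FPKM in the old ones (SD, n = 3 each), which put old means 5.39 times and 15.0 times the young ones. The averaged age difference was 3.26 ± 0.43 (limma adjusted p = 0.00313), and it was called in all 22 other settings (adjusted p 3.00e-04 to 0.0281). Between the young subsets the difference was 0.13 ± 0.60, with a 95% interval of -1.17 to 1.43 (limma adjusted p = 0.957). The share of its summed squares between ages was 77.2%.

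Clu, the secreted chaperone clusterin that platelets also store in α-granules, ordered all 4 groups without overlap. It was 0.0444, 0.0224 and 0 FPKM in Ly-HSCs of young mice and 0.818, 1.29 and 0.558 in Ly-HSCs of old mice. It was 2.41, 4.85 and 2.97 FPKM in My-HSCs of young mice and 19.6, 39.2 and 32.4 in old My-HSCs. Each group sat above the one before it, from near 0 in young Ly-HSCs to at least 19.6 FPKM in old My-HSCs. The old My-HSC mean of 30.4 ± 9.98 FPKM (SD, n = 3) was 8.92 times that of young My-HSCs (3.41 ± 1.28) and 34.3 times that of old Ly-HSCs (0.887 ± 0.369). No fold is given against young Ly-HSCs, where 1 library is listed at 0. The averaged subset difference was 3.05 ± 0.32 (limma adjusted p = 0.00329), called in all 22 other settings (adjusted p 9.94e-04 to 0.0303). The averaged age difference was 1.84 ± 0.32 (limma adjusted p = 0.0170). It was no longer called with quantile normalization or without old Ly-HSC library 2 (adjusted p = 0.0588), old My-HSC library 2 (0.0707) or old My-HSC library 3 (0.0700).

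Mmrn1, the massive α-granule protein that binds coagulation factor V, had the highest level of the 9 genes in every library, and FPKM corrects for transcript length. Young Ly-HSCs held 101, 69.9 and 111 FPKM and old Ly-HSCs 162, 154 and 168 FPKM. Young My-HSCs held 164, 195 and 183 FPKM and old My-HSCs 244, 259.6 and 264 FPKM. Old libraries lay above young ones within either subset, My-HSCs above Ly-HSCs within either age, and only old Ly-HSCs and young My-HSCs overlapped. The means of 94.0 ± 21.6, 161 ± 6.87, 181 ± 15.3 and 256 ± 10.3 FPKM (SD, n = 3 each, in the order young Ly-HSCs, old Ly-HSCs, young My-HSCs, old My-HSCs) fell at percentiles 98.3 to 99.9 of all genes. Its averaged differences were small and tight, 0.81 ± 0.12 by subset (limma adjusted p = 0.0119) and 0.65 ± 0.12 by age (limma adjusted p = 0.0236). The age call was lost in 9 of 22 other settings, 8 of which left out 1 library: any of the 3 old Ly-HSC libraries (adjusted p 0.0505 to 0.0667), any of the 3 old My-HSC libraries (0.0530 to 0.0814), or young My-HSC library 1 (0.0686) or 3 (0.0532). The ninth left out both old libraries numbered 1 (0.0932), which also ended the subset call (0.0847).

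Sdpr, named Cavin2 in current annotation, encodes a caveolar coat protein abundant in platelets. Young Ly-HSCs stood alone at the bottom with 0.565, 7.38 and 5.96 FPKM. Old Ly-HSCs held 36.5, 42.8 and 39.8 FPKM, young My-HSCs 32.3, 34.7 and 45.2, and old My-HSCs 107, 152 and 146. Old Ly-HSCs and young My-HSCs overlapped, and no other pair of groups did. Means were 4.64 ± 3.60, 39.7 ± 3.14, 37.4 ± 6.87 and 135 ± 24.2 FPKM (SD, n = 3 each, young Ly-HSCs, old Ly-HSCs, young My-HSCs, old My-HSCs). The averaged difference was 2.50 ± 0.34 by age (limma adjusted p = 0.00373, called in all 22 other settings, 2.59e-05 to 0.0343) and 2.40 ± 0.34 by subset (limma adjusted p = 0.00810). The subset call was lost in 1 of 22 settings, without both old libraries numbered 1 (0.0747). Age and subset took near equal parts of its summed squares, 45.4% and 42.0%.

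The start-site regions of 3 genes called higher in old HSCs, Selp, Sdpr and Mmrn1, are printed here from the RefSeq promoter table (GRCm38.p6, 250 bases before the transcript start, 5′ to 3′ on the gene's strand). Plek was also called higher and has an entry there, but is not printed. Capitals mark a GATA-type motif found by search.
Selp, chr1:164115014-164115263, + strand: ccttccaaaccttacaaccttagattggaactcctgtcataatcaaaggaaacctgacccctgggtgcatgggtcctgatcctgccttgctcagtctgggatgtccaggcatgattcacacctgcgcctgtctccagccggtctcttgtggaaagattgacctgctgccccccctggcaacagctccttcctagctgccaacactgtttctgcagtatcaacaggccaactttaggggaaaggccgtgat
Sdpr (Cavin2), chr1:51288876-51289125, + strand: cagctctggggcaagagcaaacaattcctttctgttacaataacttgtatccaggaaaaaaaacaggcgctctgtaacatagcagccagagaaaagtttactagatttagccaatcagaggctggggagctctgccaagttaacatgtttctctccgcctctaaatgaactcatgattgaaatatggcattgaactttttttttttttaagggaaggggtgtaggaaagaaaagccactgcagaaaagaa
Mmrn1, chr6:60944067-60944316, + strand: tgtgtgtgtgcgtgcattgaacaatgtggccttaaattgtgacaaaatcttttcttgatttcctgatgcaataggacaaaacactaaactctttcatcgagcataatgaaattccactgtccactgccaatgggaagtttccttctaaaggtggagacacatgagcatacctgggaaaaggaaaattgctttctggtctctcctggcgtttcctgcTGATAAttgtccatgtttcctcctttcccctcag
The Mmrn1 window lies inside the gene's annotated span, because the RefSeq start used there is downstream of the outermost annotated start. The same holds for the Plek window (chr11:17008719-17008968), and the Itga2b window (chr11:102469884-102470133) lies mostly inside its gene. Of the 9 genes 6 matched this table: Selp, Sdpr, Mmrn1, Plek, Itga2b and Gp1bb. Vwf, Clu and Itgb3 had no entry. Both strands of each window were searched for motifs of megakaryocyte factors. The GATA motif was searched as AGATAA, with the variant form TGATAA counted as well, and 16.6% of all 32851 windows of this length held it. The ETS motif CCGGAAG was held by 6.91% of windows and the NF-E2 and AP-1 motif TGACTCA by 4.46%. Of the 6 windows 1 held any of these, the GATA motif in Mmrn1. CG dinucleotides numbered 3 in Selp, 2 in Sdpr and 3 in Mmrn1, 4 in Plek, 2 in Itga2b and 7 in Gp1bb, against a median of 6 over all windows.

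Itgb3 and Itga2b encode the chains of integrin αIIbβ3, the platelet fibrinogen receptor, which needs both chains to reach the surface. Their levels were ordered differently over the groups. Itgb3 was 11.8, 2.37 and 7.12 FPKM in Ly-HSCs of young mice, 15.7, 27.2 and 13.5 in Ly-HSCs of old mice, 11.7, 9.64 and 23.4 in My-HSCs of young mice and 41.7, 67.6 and 58.5 in old My-HSCs. Old My-HSCs were above all other groups, and old Ly-HSCs were above young Ly-HSCs without overlap. The averaged age difference was 1.67 ± 0.34 (limma adjusted p = 0.0384) and the subset difference 1.32 ± 0.34 (limma adjusted p = 0.124). That age call was the least stable of the 6, being lost in 13 of 22 other settings, among them the leaving out of any 1 old Ly-HSC library (adjusted p 0.0600 to 0.125), any 1 old My-HSC library (0.0703 to 0.133), or young My-HSC library 1 (0.0945) or 2 (0.0890).

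Itga2b, whose product CD41 is an early mark of the megakaryocyte lineage, was 34.0, 45.3 and 49.3 FPKM in Ly-HSCs of young mice and 33.1, 56.8 and 42.6 in Ly-HSCs of old mice. It was 27.2, 36.1 and 37.2 FPKM in My-HSCs of young mice and 18.5, 25.7 and 23.9 in old My-HSCs. Old My-HSCs lay below every other library, without overlap, yet no Itga2b difference was called: -0.26 ± 0.18 by age (95% interval -0.65 to 0.13, limma adjusted p = 0.551) and -0.63 ± 0.18 by subset (-1.01 to -0.24, limma adjusted p = 0.179). The Itgb3 to Itga2b ratio of FPKM was 0.347, 0.0522 and 0.144 in Ly-HSCs of young mice, 0.476, 0.478 and 0.318 in Ly-HSCs of old mice, 0.432, 0.267 and 0.629 in My-HSCs of young mice and 2.25, 2.63 and 2.44 in old My-HSCs. Only in the 3 old My-HSC libraries did Itgb3 FPKM exceed Itga2b FPKM, which is RNA and gives no level of the protein chains. This ratio was formed after its values were seen and carries no test.

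Plek, pleckstrin, is a major protein kinase C substrate of platelets that leukocytes also hold. Its mean was higher in Ly-HSCs than in My-HSCs at either age. Young Ly-HSCs held 32.4, 22.6 and 34.1 FPKM, old Ly-HSCs 112, 76.5 and 61.5, young My-HSCs 22.2, 23.5 and 15.8 and old My-HSCs 48.0, 36.9 and 30.7. Old libraries were above young ones within either subset, and old Ly-HSCs were above old My-HSCs. The averaged age difference was 1.16 ± 0.20 (limma adjusted p = 0.0150) and the subset difference -0.79 ± 0.20 (limma adjusted p = 0.112). In both old groups the highest value, 112 and 48.0 FPKM, was in library 1, where the granulocyte and monocyte markers summed highest. Without both of these libraries the age difference was 0.96 ± 0.20 (limma adjusted p = 0.0766), the 1 of 22 settings that ended the call. The gene overlaps Cnrip1 on the opposite strand.

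Gp1bb, a chain of the platelet receptor for Vwf, was near the limit of detection. It was listed at 0 in all 3 young Ly-HSC libraries. Old Ly-HSCs held 0, 2.66 and 0 FPKM, young My-HSCs 0, 4.44 and 0.171 and old My-HSCs 0, 6.16 and 1.80. In each of these 3 groups library 2 was highest and library 1 was listed at 0, and all groups overlapped. No difference was called (0.59 ± 0.56 by age, limma adjusted p = 0.684). Gp1bb lies on the same strand as the overlapping gene Sept5, so its FPKM is uncertain.

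The 9 genes lie on 5 chromosomes in the GRCm38 annotation (GENCODE M21), where all are protein coding. Sdpr spans chr1:51289126-51302960 and Selp chr1:164115264-164150026, both on the + strand. Mmrn1 (chr6:60924976-60989378, +) and Vwf (chr6:125546774-125686679, +) share chromosome 6. Plek (chr11:16971206-17052381, -), Itga2b (chr11:102453297-102470122, -) and Itgb3 (chr11:104608000-104670476, +) share chromosome 11. Clu is at chr14:65968483-65981547 (+) and Gp1bb at chr16:18620317-18622403 (-).

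**Figure D2:**
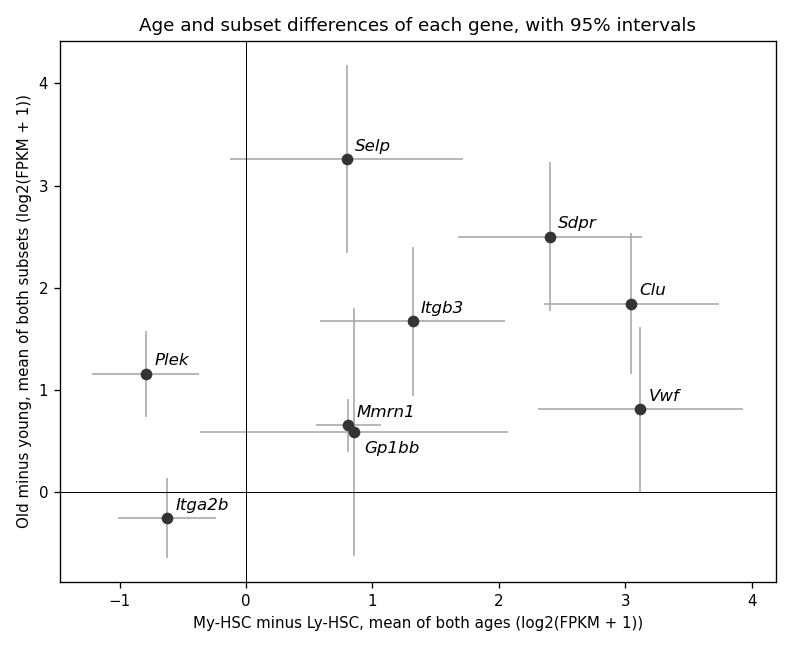
Averaged subset difference (horizontal axis, My-HSC minus Ly-HSC, log2 of FPKM + 1) against averaged age difference (vertical axis, old minus young, same scale) for the 9 genes, with grey bars for the 95% intervals from limma. Selp is highest by age at 3.26, Vwf lies farthest right by subset at 3.12, Sdpr is at 2.50 by age and 2.40 by subset, and Plek and Itga2b lie below 0 by subset.

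Compared one subset or age at a time, with 3 libraries against 3, fewer differences were called. In Ly-HSCs 2 of the 9 genes, Sdpr (3.17 ± 0.48, limma adjusted p = 0.0161) and Plek (1.44 ± 0.28, limma adjusted p = 0.0496), were called higher in old mice, against 0.339% of all tested genes. In My-HSCs 2 were called higher in old mice, Selp (3.93 ± 0.60, limma adjusted p = 0.0196) and Clu (2.82 ± 0.45, limma adjusted p = 0.0238), against 0.193%. In young mice 2 were called higher in My-HSCs, Vwf (3.40 ± 0.53, limma adjusted p = 0.0311) and Sdpr (3.08 ± 0.48, limma adjusted p = 0.0311), against 0.119%. In old mice 1 was called higher in My-HSCs, Clu (4.02 ± 0.45, limma adjusted p = 0.00724), against 0.0183%.

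Each of these 7 calls was lost when 1 of several single libraries was left out. The Sdpr age call in Ly-HSCs was lost without old Ly-HSC library 1, 2 or 3 (adjusted p 0.0791, 0.0933 and 0.0814), and that of Plek held in only 4 of 23 other settings (0.0442 to 0.371). The age calls in My-HSCs were lost without old My-HSC library 1, 2 or 3 (Selp 0.118, 0.157 and 0.157, Clu 0.0793, 0.202 and 0.205), old Ly-HSC library 2 or 3 (Selp 0.0506 and 0.0515, Clu 0.0535 and 0.0575), young My-HSC library 1 or 2 (Selp 0.103 and 0.0874, Clu 0.103 and 0.0711) and, for Clu, young My-HSC library 3 (0.103). The Vwf and Sdpr calls in young mice were lost without any 1 My-HSC library or old Ly-HSC library 2 or 3 (0.0582 to 0.124). The Clu call in old mice was lost without any 1 old Ly-HSC library (0.0528 to 0.105) or old My-HSC library 2 or 3 (0.120 and 0.113).

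Counted by whether the 3 libraries of each group overlapped, Mmrn1, Sdpr, Selp, Clu, Itgb3 and Plek, 6 of the 9, were higher in all old libraries in Ly-HSCs, where 11.5% of all tested genes were. The same 6 were higher in all old libraries in My-HSCs, where 11.3% of genes were, and Itga2b was lower, where 7.8% were. In young mice 4 genes, Mmrn1, Vwf, Sdpr and Clu, were higher in all My-HSC libraries, against 8.97% of genes. In old mice 6, now with Selp and Itgb3, were higher, against 9.19%, and 2, Plek and Itga2b, were lower, against 7.53%. Over 6 libraries against 6, Vwf and Clu were above in all My-HSC libraries, against 0.798% of genes.

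Whether the age difference itself differed between subsets was tested with an interaction term. None of the 10900 genes was called by limma, and 616 had an unadjusted p under 0.05. Clu was the 1 of the 9 genes among these, with a larger age difference in My-HSCs by 1.95 ± 0.64 on the log2(FPKM + 1) scale (limma adjusted p = 0.838). That size depends on the scale, which understates changes of low values, and most Clu values in Ly-HSCs were under 1 FPKM. Over 22 other settings it ranged from 0.16 to 2.87 and was never called. Selp differed by 1.34 ± 0.85 (95% interval -0.50 to 3.18, limma adjusted p = 0.906) and Sdpr by -1.35 ± 0.67 (-2.81 to 0.11, limma adjusted p = 0.874). Neither a larger Selp difference in My-HSCs nor a smaller Sdpr one was thus called.

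**Figure D3:**
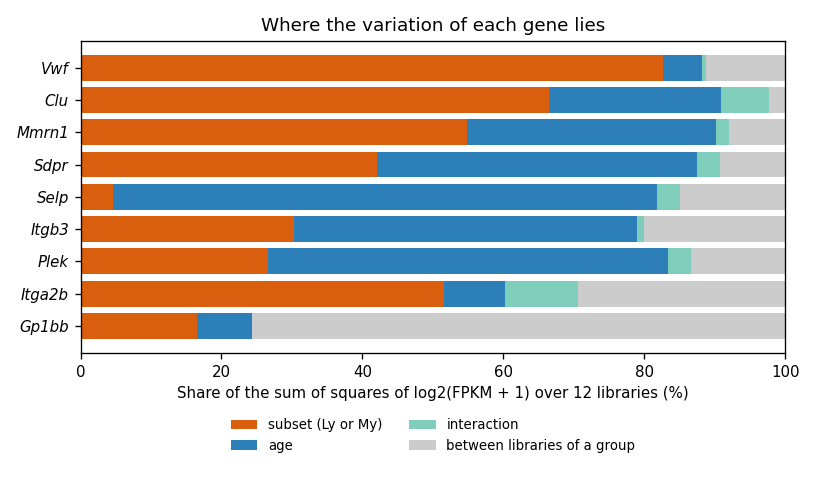
Share of each gene's summed squares of log2(FPKM + 1) over the 12 libraries (horizontal axis, percent) that lies between ages, between subsets, in their interaction and between libraries of a group. Selp (77.2%) is mostly between ages, Vwf (82.6%) between subsets, Sdpr is split between both, and Gp1bb (75.6%) lies between libraries of a group.

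Vwf, Selp and Clu each had other genes whose log2(FPKM + 1) values ran alike over the 12 libraries, which share their groups and the depth of each library. By Pearson's r, given without a test, those most like Vwf were Fli1 (0.933), an ETS factor of megakaryocytes and HSCs, Tns2 (0.931), Neo1 (0.930), the neogenin receptor, Calcrl (0.925) and Fbxo25 (0.914). Most like Selp were Abca4 (0.954), the AP-1 subunit Junb (0.933), Rorb (0.928), Plscr2 (0.917) and Nfia (0.909). Among those most like Clu were Cnksr1 (0.952), Tc2n (0.945), the calcium release channel Ryr2 (0.927) and Plcl1 (0.916). Cnksr1 reached 1 FPKM, the level needed in at least 3 libraries for testing, only in old My-HSCs (at most 0.383 FPKM elsewhere). Tc2n did so only there and in old Ly-HSC library 2 (1.10 FPKM). Rorb did so only in old libraries (at most 0.331 FPKM in young ones). The r of these genes therefore partly restates those groups. None of the 9 genes was among the 5 most like another of these 3.

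The 5 other lists held platelet-lineage genes and, in 1 of them, relatives of Selp, Sdpr and Mmrn1. Of their 83 tested genes, 2 were called higher in old HSCs (2.41%, beside the 0.752% of all tested genes) and none lower. Over all tested genes 62.7% had a higher mean in old HSCs, and 1597 of 10900 had an unadjusted limma p under 0.05. Of 19 other platelet surface receptors tested, 15 were higher in old HSCs but none was called (4 had an unadjusted p under 0.05), with a median difference of 0.21 against 0.13 over all tested genes. The 2 with the largest differences were Tbxa2r, the thromboxane receptor (1.06 ± 0.55, limma adjusted p = 0.406), and the tetraspanin Cd9 (0.97 ± 0.58, limma adjusted p = 0.478). Of 14 other genes of α-granule contents and formation, 9 were higher and 1 was called, with a median of 0.24. That gene was F13a1, the coagulation factor XIII A chain that platelets and macrophages hold.

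F13a1 was listed at 0 in all 6 young libraries, against 10.3, 2.79 and 0.582 FPKM in Ly-HSCs of old mice and 2.34, 6.46 and 4.80 in old My-HSCs (limma adjusted p = 0.0317). It reached the level needed for testing only through old libraries, where it was called higher. F13a1 is also 1 of the 2 calls among the 83 genes. It was called in 11 of 21 other settings (adjusted p 0.0111 to 0.125) and lost without old Ly-HSC library 2 (0.0810), old My-HSC library 2 (0.112) or 3 (0.102), or any 1 young My-HSC library (0.0719 to 0.0750). Of 23 signalling and cytoskeletal genes 10 were higher and 1 was called, with a median of -0.05. This was Fyb, the adaptor ADAP that links receptors to integrin activation, at 87.9, 89.3 and 73.4 FPKM in young Ly-HSCs, 129, 133 and 131 in Ly-HSCs of old mice, 51.5, 92.3 and 64.3 in My-HSCs of young mice and 150.5, 143 and 144 in old My-HSCs. Every old library was above every young one (0.88 ± 0.14, limma adjusted p = 0.00915), and the call was lost in 1 of 22 settings, without both old libraries numbered 1 (0.0575).

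Of 18 megakaryocyte transcription factors 10 were higher in old HSCs, with a median of 0.04. None was called, and 4 had an unadjusted limma p under 0.05, beside 1597 of all 10900 tested genes. The largest differences were those of Ets1 (1.02 ± 0.41, limma adjusted p = 0.271) and Hhex (-0.54 ± 0.32, limma adjusted p = 0.476). Of 9 relatives of Selp, Sdpr and Mmrn1, selectins, caveolar proteins and emilins, 6 were higher and none was called (3 had an unadjusted p under 0.05), with a median of 0.16. Among them Cav2 differed by 1.16 ± 0.42 (limma adjusted p = 0.224). By subset no gene of these 5 lists was called. Medians there were 0.26 for the receptors, -0.02 for the granule genes, 0.06 for signalling, 0.07 for the transcription factors and 0.11 for the relatives, against 0.08 over all tested genes.

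Markers of mature megakaryocytes and platelets differed in level and in how far they scattered between libraries of a group. Of 12 listed, 8 had a row, 7 were tested and none was called in any comparison, with Itga2b and Gp1bb among them. Their summed level was 53.4 to 76.1 FPKM in young Ly-HSCs, 44.7 to 79.6 in Ly-HSCs of old mice, 42.4 to 75.5 in My-HSCs of young mice and 36.7 to 48.1 in old My-HSCs. Itga2b alone gave 18.5 to 56.8 FPKM of these sums. Gene by gene, 4 of the 7 had a higher mean log2 value in old HSCs, with a median difference of 0.59 against 0.13 over all tested genes. That median is the difference of Gp1bb, which was near the limit of detection. By subset 6 of 7 were higher in My-HSCs, with a median of 0.32 against 0.08. Counted by overlap, 2 of the 7 were higher in all old libraries in Ly-HSCs (11.5% of all tested genes) and 0 lower. In My-HSCs 0 were higher with age and 1 lower (7.8%). In young mice 2 were higher in all My-HSC libraries (8.97%) and 0 lower. In old mice 1 was higher (9.19%) and 1 lower (7.53%). The largest age differences were those of Tubb1, the platelet β1 tubulin (-1.03 ± 0.75, limma adjusted p = 0.574), and Gp1ba, the chain that binds Vwf (0.94 ± 0.47, limma adjusted p = 0.383). Gp6, the platelet collagen receptor, was listed at 0 in 11 of 12 libraries. Treml1, a receptor of α-granules, was 28.1, 7.29 and 0 FPKM in Ly-HSCs of young mice, 0.229, 4.24 and 4.38 in Ly-HSCs of old mice, 3.72, 15.5 and 2.25 in My-HSCs of young mice and 2.65, 3.51 and 5.69 in old My-HSCs. Clec1b, the podoplanin receptor CLEC-2, was 0, 0.0157 and 0 FPKM in Ly-HSCs of young mice, 0.733, 0.774 and 0.308 in Ly-HSCs of old mice, 2.77, 0.736 and 2.47 in My-HSCs of young mice and 4.68, 2.10 and 2.92 in old My-HSCs.

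**Figure D4:**
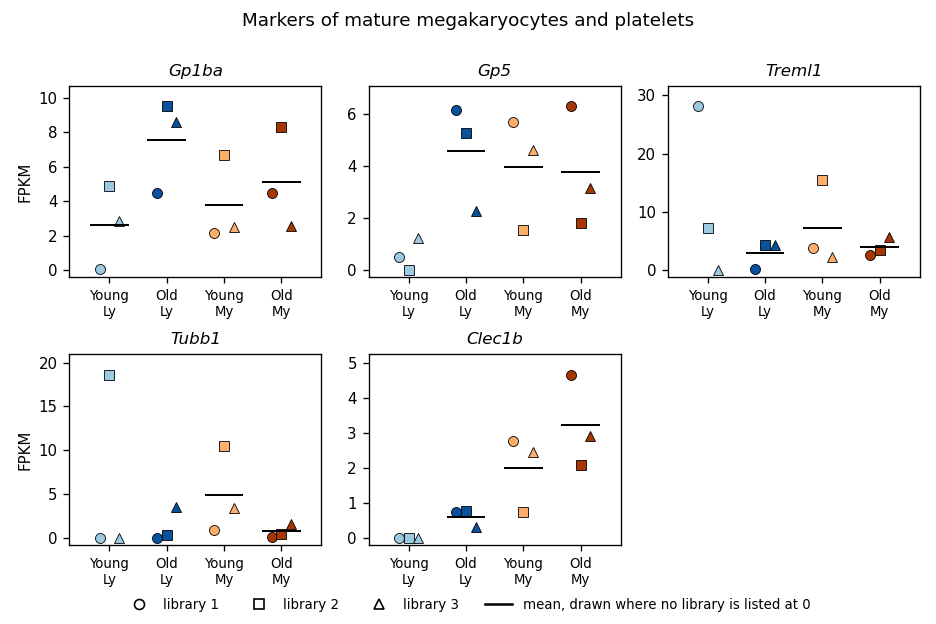
FPKM of Gp1ba, Gp5, Treml1, Tubb1 and Clec1b, markers of mature megakaryocytes and platelets (one panel each, vertical axis in FPKM), in the 4 groups, with 1 point per library and a line at the group mean where no library is listed at 0. Treml1 and Tubb1 peak in single young libraries (28.1 and 18.6 FPKM), and none of the 5 genes was called.

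Endothelial cells also make Vwf, Selp and Mmrn1. Of 16 endothelial markers listed 14 had a row and 9 were tested, with none called by age or subset in the averaged comparisons. Their summed level was 182 to 238 FPKM in young Ly-HSCs, 165 to 225 in Ly-HSCs of old mice, 233 to 327 in My-HSCs of young mice and 220 to 243 in old My-HSCs, and HSCs share several of these genes. By subset 8 of the 9 were higher in My-HSCs (3 with an unadjusted p under 0.05), with a median of 0.24 against 0.08 over all tested genes. By age 3 of 9 were higher in old HSCs, with a median of -0.08 against 0.13. Over all 10900 tested genes, 1217 had an unadjusted limma p under 0.05 by subset and 1597 by age. Robo4, which HSCs also express, differed with age by -0.88 ± 0.26 (limma adjusted p = 0.146), and Cldn5 by 1.25 ± 0.39 (limma adjusted p = 0.160). Cdh5, VE-cadherin, was listed at 0 in 10 libraries and reached 0.193 FPKM at most, and Flt1 reached 0.363. Cdh5 and Flt1 were picked after their values were seen and were not among the tested markers. Cldn5 was listed at 12.6, 14.9 and 4.94 FPKM in old My-HSCs and at most 1.50 elsewhere. The granulocyte and monocyte markers summed higher in every old library than in every young one, as given above, and all 6 were higher in old HSCs on average, none of them called (5 had an unadjusted p under 0.05). Itgam differed by 2.98 ± 0.83 (limma adjusted p = 0.122) and Mmp9 by 2.58 ± 0.94 (limma adjusted p = 0.226). Of the erythroid markers Slc4a1 differed by 1.65 ± 0.79 (limma adjusted p = 0.357) and Car1 by 1.50 ± 0.81 (limma adjusted p = 0.420), and of the B and T cell markers Cd79a by 0.93 ± 0.40 (limma adjusted p = 0.303). Their part in the age differences, and that of the larger share of genes at 0 in young libraries, was not tested. Without both old libraries numbered 1, the averaged age calls of Mmrn1 (0.66 ± 0.14, limma adjusted p = 0.0932), Itgb3 (1.81 ± 0.41, limma adjusted p = 0.119) and Plek were lost. Those of Selp (3.43 ± 0.52, limma adjusted p = 0.0281), Sdpr (2.61 ± 0.41, limma adjusted p = 0.0343) and Clu (1.99 ± 0.35, limma adjusted p = 0.0465) were made there too. In the 4 old libraries then left, the granulocyte and monocyte markers still summed above every young library.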

How the data were processed

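RNA of 12 libraries, 3 for each of 4 groups, was prepared with a KAPA stranded mRNA kit and sequenced paired-end, per the labels' protocols. The authors deposited FPKM values for 14143 genes. Tools listed in the submitters' processing notes are STAR, DESeq2 and bcl2fastq 2.17, with the build GRCm38 (mm10) and no roles. The annotation, any filter and the treatment of reads shared between genes were not stated in the sources used here. No fragment counts were used, so count tests were not run.

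From the FPKM, limma 3.58.1 (R 4.3.3, trended variance) was fitted to log2(FPKM + 1) of the 10900 genes at 1 FPKM or more in at least 3 libraries, with 4 group means, 8 residual degrees of freedom and two-sided tests. All 9 platelet-lineage genes passed this filter. Averaged age and subset differences are means of the paired within-subset or within-age contrasts. The members, the gene lists and the tests were chosen with earlier results of these data known. The genes named are the members, every listed gene called in any comparison, for a list with no call the 2 with the largest averaged age difference, and the 5 most like Vwf, Selp and Clu. Of these, 3 genes are not reported here. Gp5, Gp6, Treml1, Clec1b, Cdh5 and Flt1 were added after their values were seen. The HSC marker list also gave calls for Hoxb5 (subset, 2.40 ± 0.46, limma adjusted p = 0.0437, called in 6 of 22 other settings) and Ly6a (age, 2.21 ± 0.39, limma adjusted p = 0.0177, called in 18 of 22).

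Same-numbered old Ly-HSC and My-HSC libraries deviated together (r of deviations from group means 0.256, 0.233 and 0.210). Differently numbered old libraries 2 and 3 did so less (0.106 and 0.0753). The numbers may thus pair the old subsets, but the sample titles do not say so. Same-numbered young libraries did not deviate together (0.0482, 0.0026 and 0.0023). Coordinates are from GENCODE M21, and promoter sequences from RefSeq GRCm38.p6. Gene versions in the table and the annotation differ for Clu and Gp1bb. Alternatives were other pseudocounts, filters, scalings, weights, a replicate block, 2-group fits and leaving out libraries.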

Additional observations from a re-analysis of the deposited data

How the results depend on the processing

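No gene named above reversed a called difference: of the values of single genes under the alternatives, 1525 kept their sign and side of the threshold, 143 lost a call, 34 gained one, and 19 did not keep their sign without being called in either fit (among them Selp between the young subsets, down to -0.65, and Clu with age in Ly-HSCs, -0.02 under quantile normalization). Of the 9 genes, those called were: for age in Ly-HSCs 2, with 1 under a pseudocount of 5, median-of-ratios scaling, rescaling to TPM or 1 weight per group, and 0 with no filter or only the 2 groups compared. For age in My-HSCs they were 2, with 0 under a pseudocount of 0.1 or TPM and 4 with 1 weight per group. For subset in young mice they were 2, with 0 under no filter, 1 weight per group or only the 2 groups. Under a pseudocount of 0.1 and under TPM the 2 were Clu and Mmrn1, and Vwf (limma adjusted p = 0.0528 and 0.0537) and Sdpr (0.0522 and 0.0537) were lost. For subset in old mice they were 1, with 0 under a pseudocount of 0.1, 3 under a pseudocount of 5, 2 under quantile normalization, 6 with 1 weight per group and 3 with only the 2 groups. The cause of these shifts was not tested. Leaving out 1 library gave 0 to 4, 0 to 3, 0 to 4 and 0 to 2 in those 4 comparisons, 3 to 6 for the averaged age comparison (6 as reported) and 4 to 5 for the averaged subset comparison (4 as reported). Leaving out both old libraries numbered 1, chosen after seeing the data, gave 0 in each of the 4 and 3 and 2 in the averaged ones. The interaction called 0 of the 9 in all 22 settings. With the replicate block, 1 gene was called for age in My-HSCs and 1 for subset in young mice, where the libraries share only a number. For age in Ly-HSCs the block kept the count at 2 but lost Plek (limma adjusted p = 0.0638) and gained Selp (0.0433), and Itgb3 lost its averaged age call (limma adjusted p = 0.0737). Between the old subsets the block changed no call. Over all genes, called counts ranged with the setting from 0 to 224 (38 as reported) for age in Ly-HSCs, 0 to 71 (23) for age in My-HSCs, 0 to 299 (13) and 0 to 69 (3) for subset in young and old mice, 42 to 197 (92) and 15 to 111 (45) for the averaged age and subset comparisons, and 0 to 6 (0) for the interaction. Quantile normalization moved the median age difference of all genes in Ly-HSCs from 0.18 to 0.03 and the averaged one from 0.13 to 0.01. Depth is unknown and limits genes near 0, such as Gp1bb, which also drops out when 6 libraries must reach 1 FPKM.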

Other observations

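The lowest Clu values may be single fragments. The Clu FPKM of young Ly-HSC libraries 1 and 2 had a ratio of 1.98, and the relative depths read from the spacing of low values in the same libraries had the inverse ratio of 1.98. Those depths are themselves uncertain, since the next-best depth scored 54.5% to 92.3% of the best one over the libraries. The 92.3% was that of young Ly-HSC library 1, with a best relative depth of 0.702 and a next-best of 1.40. Library 2 had a best depth of 1.39, so with that next-best depth the ratios would not match.

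Tubb1, the platelet β1 tubulin, was 0, 18.6 and 0 FPKM in young Ly-HSCs, 0, 0.313 and 3.53 in Ly-HSCs of old mice, 0.900, 10.5 and 3.42 in My-HSCs of young mice and 0.139, 0.492 and 1.64 in old My-HSCs. Its highest value in each young group was in library 2. Gp5, the platelet receptor chain, was 0.506, 0 and 1.22 FPKM in young Ly-HSCs, 6.16, 5.26 and 2.25 in Ly-HSCs of old mice, 5.67, 1.55 and 4.61 in My-HSCs of young mice and 6.28, 1.81 and 3.17 in old My-HSCs.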
